A study of Mus musculus with 12 samples.

Results

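Collagen genes were followed in mouse liver across genotype and glucocorticoid treatment. They were taken as every non-control probe whose gene name in the array files was Col, a number, the letter a and a number, which gave 78 of 41174 probes and 40 of 27769 genes and unnamed probes. RNA of 12 livers was hybridised to one-colour arrays, 1 male C57BL/6 mouse of 8 to 10 weeks per array and 3 mice per group. The groups were HESKOL mice that received 1 mg/kg dexamethasone, a synthetic glucocorticoid, by intraperitoneal injection 6 h before the liver was taken, HESKOL mice left untreated, and wild-type mice with the same injection or untreated. All 4 groups were adrenalectomized, so their own glucocorticoids had been removed in the controls too, and no vehicle injection is described for the untreated mice. HESKOL animals are labelled as knockout mice, and the labels do not spell the name out or say in which cells a gene was altered. The title of the study names Hes1, a repressor downstream of Notch, so the questions were how collagen RNA differed with dexamethasone in each genotype and between the genotypes.

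Collagens are secreted or membrane proteins built from 3 chains that wind into a triple helix, in which every residue next to the helix axis is glycine (Gly-X-Y). Fibrillar chains form the load-bearing fibrils of connective tissue, type IV chains form the sheets of basement membranes, and fibril-associated, beaded-filament, short-chain, multiplexin and transmembrane collagens attach to or organise these structures. In liver, hepatic stellate cells and portal fibroblasts are the known main sources of fibrillar collagen, endothelial cells make basement membrane collagen and hepatocytes make type XVIII. Glucocorticoids are known to reduce collagen synthesis in cultured fibroblasts and skin.

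Values below are relative log2 signals, the log2 of the processed signal minus that of the array's 75th percentile, and differences are log2 changes with the standard error (SE) of a limma fit over all 12 arrays. A gene passed the test where its adjusted p (Benjamini-Hochberg over 18699 tested features) was under 0.05. On each array 62.2% to 72.3% of probes were well above background, and 3 arrays per group limit the precision. Hes1 was at -3.08, -3.02 and -3.85 in dexamethasone-treated HESKOL livers, -2.46, -2.40 and -3.09 in untreated HESKOL livers, -1.16, -2.57 and -2.92 in dexamethasone-treated wild-type livers and -1.49, -1.22 and -1.90 in untreated wild-type livers. The HESKOL livers lay below the wild-type livers in both states without overlap, although the differences of -1.12 untreated (adjusted p = 0.9999) and -1.10 after dexamethasone (adjusted p = 0.248) did not pass, and the labels do not say whether this probe lies in the altered region. Cdkn1a, a known glucocorticoid-responsive gene, rose by 6.26 in treated HESKOL livers and 6.66 in treated wild-type livers.

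The summed level of 8 hepatocyte markers lay between 10.31 and 11.16 log2 units above the 75th percentile on the 12 arrays. Replicate 1 of the treated wild-type livers stood apart. For Fkbp5, a co-chaperone induced by the glucocorticoid receptor, the treated wild-type livers were at -1.0, 3.45 and 3.98, and the untreated ones at 0.33, 1.19 and -0.65, so that replicate 1 lay with the untreated livers. For Cdkn1a it lay with the treated ones, at 2.01, 3.49 and 3.25, against -2.61, -4.29 and -4.35 in untreated wild-type livers. Where leaving this liver out made or ended the call of a collagen gene, that is given beside the gene. The arrays lay on 3 slides, of which no slide held treated and untreated livers of 1 genotype: slide 1 held all untreated wild-type livers and untreated HESKOL replicate 1, slide 2 untreated HESKOL replicates 2 and 3 and treated wild-type replicates 1 and 2, and slide 3 treated wild-type replicate 3 and the 3 treated HESKOL livers. In bulk liver, fewer cells of a type and less RNA per cell cannot be told apart.

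Of the 40 collagen genes, 34 were tested because they cleared the background on every array of some group, and 31 of them did so on all 12 arrays. The other 6, at -9.71 to -6.07 on the relative log2 scale, were Col9a1 and Col9a3, chains of cartilage type IX collagen, Col10a1, the collagen of hypertrophic cartilage, and Col19a1, Col24a1 and Col28a1. Of these, Col24a1 and Col9a3 were above background on 4 arrays each and the others on 0. The tested genes were 10 of 11 fibrillar chains, 6 of 6 basement membrane chains, 4 of 5 beaded-filament and anchoring chains, 6 of 9 fibril-associated, 4 of 4 transmembrane, 2 of 3 short-chain and 2 of 2 multiplexin collagens.

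Averaged over the genotypes, dexamethasone changed 6 of the 34 tested collagen genes (limma, adjusted p under 0.05), or 17.6%, where 11.8% of all tested features passed in the same comparison. Col13a1, Col20a1, Col4a1 and Col7a1 rose, and Col27a1 and Col5a3 fell, while 5.29% of all features rose and 6.5% fell. In HESKOL liver alone 2 collagen genes passed, Col13a1 higher and Col27a1 lower, which is 5.88% of the 34 against 7.84% of all features (3.64% higher and 4.2% lower). In wild-type liver 0 passed in limma, against 0.198% of all features, with 6 collagen genes and 11.8% of all features at an unadjusted p under 0.05. Among 34 genes such shares differ from those of all features by few genes, so nothing about collagens as a set is read from them. The median log2 change with dexamethasone over the 34 genes was -0.013 in HESKOL liver, 0.19 in wild-type liver and 0.073 on average, beside -0.0025, -0.02 and -0.0067 over all tested features. The HESKOL and wild-type changes share no arrays, but both run across the same slides, so their signs are not independent. Of the 34 genes, 16 were above 0 in both, 8 below 0 in both, 9 below 0 in HESKOL and above 0 in wild-type liver, and 1 the other way. The sign turned for 11 of them in HESKOL and 10 in wild-type liver with slide as a block. Agreement of signs over all features was not computed.

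**Figure D1:**
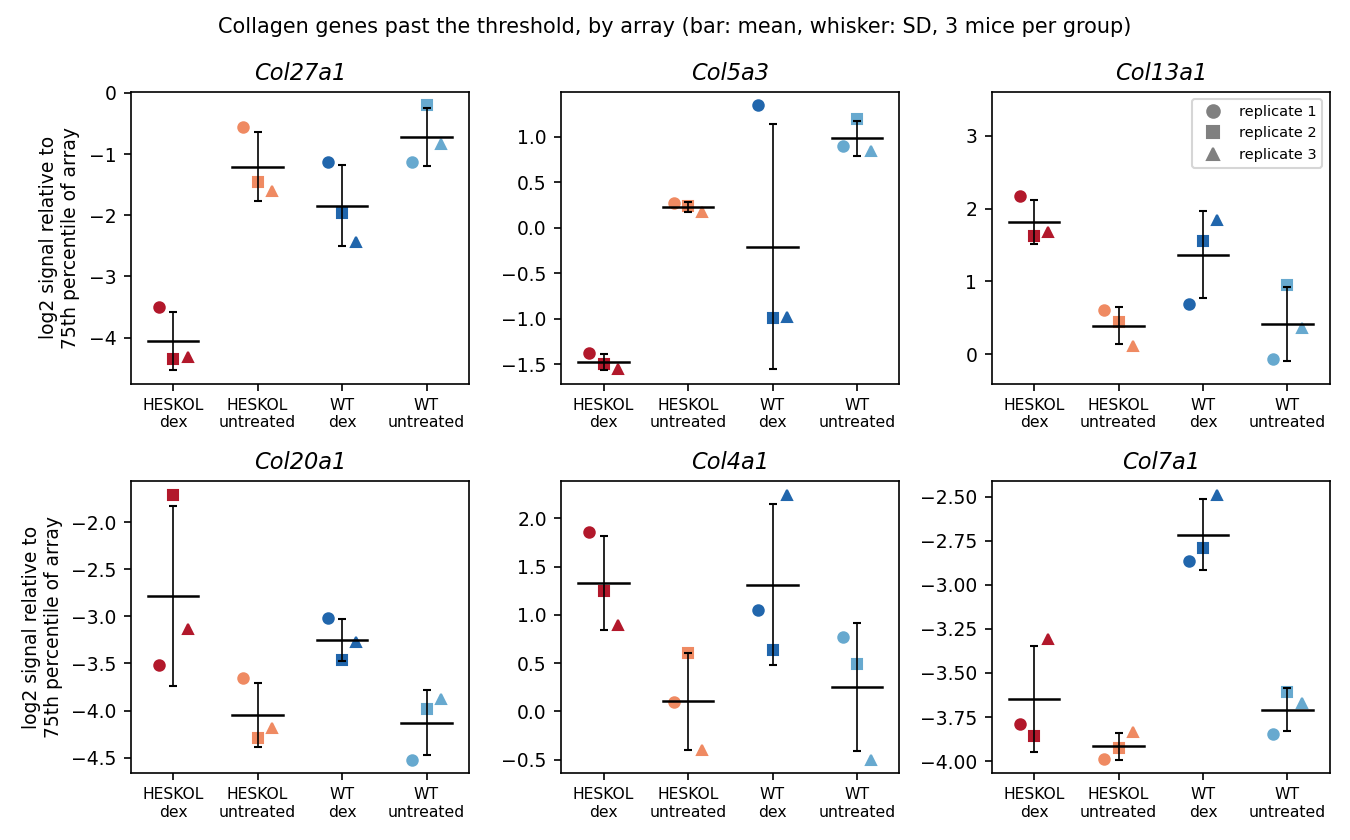
Relative log2 signal (log2 units against the array's 75th percentile, y axis) of the 6 collagen genes that passed for dexamethasone averaged over the genotypes, for each mouse (points, shape by replicate) in the 4 groups (x axis), with the group mean as a bar and the SD as a whisker. Col27a1 lies at -4.35 to -3.51 in the treated HESKOL livers, below the other 9 livers, and Col5a3 shows treated wild-type replicate 1, at 1.34, apart from the other treated livers.

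Among fibrillar collagens the lower genes were Col27a1, a chain of a short fibrillar collagen known from cartilage, and Col5a3, the alpha 3 chain of type V collagen, which the fibrils of many tissues contain in small amounts. Of the 3 Col27a1 probes, the 60-base one that crosses an intron is shown, since it reads spliced RNA. It spans chr4:62763601-62765034 (plus strand) of the mouse assembly mm7, on which the array was designed, a distance of 1434 bases. No run of glycine codons was found in it, so no part is in capitals. Sequences run 5′ to 3′.
Col27a1 probe 3: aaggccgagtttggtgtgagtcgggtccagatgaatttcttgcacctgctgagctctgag

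Col27a1 was at -3.51, -4.35 and -4.31 in treated HESKOL livers and -0.56, -1.46 and -1.61 in untreated HESKOL livers. Treated wild-type livers were at -1.13, -1.97 and -2.44 and untreated wild-type livers at -1.13, -0.20 and -0.84. All 3 treated HESKOL livers lay below every other liver of the study, and treated wild-type replicate 1 equalled untreated wild-type replicate 1 to the second decimal. The log2 change with dexamethasone was -2.85 (SE 0.41, adjusted p = 0.00430) in HESKOL liver, where treated livers kept 13.9% of the untreated signal, and -1.12 (SE 0.41, adjusted p = 0.324) in wild-type liver. The group means were -4.06 ± 0.48, -1.21 ± 0.57, -1.85 ± 0.66 and -0.72 ± 0.47 (SD, n = 3 each) in the same order of groups. The average change over the genotypes was -1.99 (SE 0.29, adjusted p = 0.00317), or 25.2% of the untreated signal. The test of the difference between the 2 changes did not pass, at -1.72 (SE 0.58, adjusted p = 0.584), so a larger response in HESKOL liver was not shown.

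Col27a1 has 3 probes, and each had a change below 0 in HESKOL liver. The probe with the highest signal, which stands for the gene above, had a change of -2.85, and probes 2 and 3 of -2.11 and -2.10, in the fit where each probe was a feature of its own (adjusted p = 0.00483, 0.0994 and 0.0596). On average over the genotypes 2 of the 3 passed there (adjusted p = 0.00338, 0.0546 and 0.0450). With slide as a block the Col27a1 change was -1.63 in HESKOL liver (adjusted p = 0.769), 0.15 in wild-type liver (adjusted p = 0.9998), where the sign turned, and -0.74 on average (adjusted p = 0.987), and none passed. Without treated wild-type replicate 1 the wild-type change was -1.48 (adjusted p = 0.0607).

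**Figure D2:**
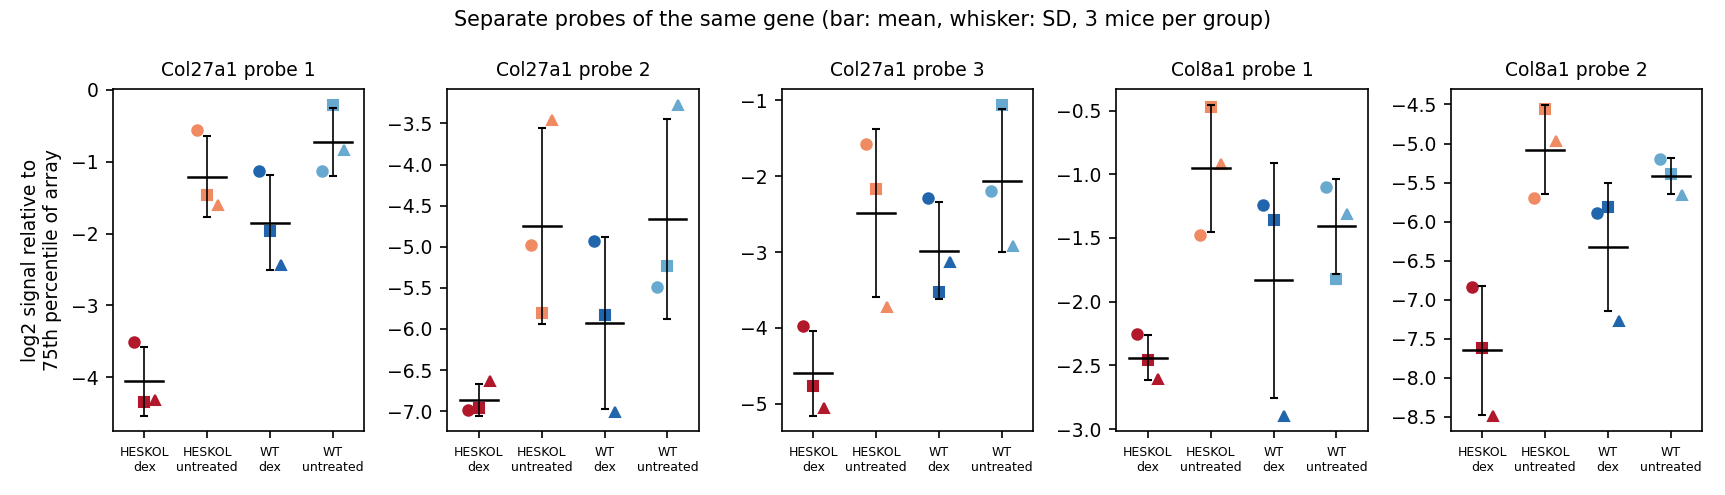
Relative log2 signal (y axis, log2 units against the array's 75th percentile, with a range of its own in each panel) of each mouse (points, shape by replicate) in the 4 groups (x axis) for the 3 probes of Col27a1 and the pair of probes of Col8a1, with group means as bars and SDs as whiskers. In each panel the treated HESKOL livers are lowest or among the lowest, and the levels of different probes are not comparable.

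Col5a3 was at -1.37, -1.50 and -1.55 in treated HESKOL livers, against 0.27, 0.24 and 0.17 in untreated HESKOL livers, and the 2 groups were apart by more than 1 log2 unit with a narrow spread in each. In wild-type liver the values were 1.34, -0.99 and -0.98 after dexamethasone, against 0.90, 1.19 and 0.84 untreated, so that treated replicates 2 and 3 lay below all untreated livers and treated replicate 1 above them. The log2 change averaged over the genotypes was -1.44 (SE 0.35, adjusted p = 0.0262), a 2.72-fold decrease, with -1.70 (SE 0.50, adjusted p = 0.0599) in HESKOL and -1.19 (SE 0.50, adjusted p = 0.385) in wild-type liver. Without treated wild-type replicate 1 the wild-type change was -1.96 (adjusted p = 0.00110) and the HESKOL change, whose own arrays stayed the same, passed as well (adjusted p = 6.4e-04) through the estimate of spread that all groups share. The slide block gave -0.63 for the average (adjusted p = 0.987). A second Col5a3 probe was above background on 7 arrays and was not tested.

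The abundant fibrillar chains of stromal collagen did not pass in any comparison. Col1a1, the main chain of type I collagen, was at 0.58, 0.22 and -1.73 in dexamethasone-treated HESKOL livers, -0.45, 0.65 and -0.48 in untreated HESKOL livers, 0.57, 0.44 and 0.056 in dexamethasone-treated wild-type livers and 1.37, -0.12 and -0.87 in untreated wild-type livers. Its partner Col1a2 was at 1.87, 2.06 and 0.78 in dexamethasone-treated HESKOL livers, 1.14, 1.67 and 1.61 in untreated HESKOL livers, 1.84, 2.06 and 1.2 in dexamethasone-treated wild-type livers and 1.91, 1.18 and 1.14 in untreated wild-type livers. The groups overlapped for both genes. The log2 change of Col1a1 was -0.22 (SE 0.65) in HESKOL and 0.23 (SE 0.65) in wild-type liver, and that of Col1a2 was 0.098 (SE 0.37) and 0.29 (SE 0.37). With these errors, changes of Col1a1 of about 1 log2 unit in either direction cannot be told from 0.

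Col3a1, the chain of type III collagen that accompanies type I in soft tissue, was at 2.05, 1.65 and -1.08 in dexamethasone-treated HESKOL livers, 1.76, 2.87 and 1.87 in untreated HESKOL livers, 2.51, 2.23 and 1.43 in dexamethasone-treated wild-type livers and 3.12, 1.92 and 0.94 in untreated wild-type livers. The lowest value, in treated HESKOL replicate 3, was far from the other 2 livers of its group. Its log2 change was -1.29 (SE 0.77, adjusted p = 0.330) in HESKOL and 0.064 (SE 0.77, adjusted p = 0.985) in wild-type liver.

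Col5a1, the obligate chain of most type V collagen, was at -0.78, -0.96 and -2.05 in dexamethasone-treated HESKOL livers, -1.31, -0.52 and -1.12 in untreated HESKOL livers, -0.52, -1.31 and -1.42 in dexamethasone-treated wild-type livers and -0.28, -1.13 and -1.59 in untreated wild-type livers. Col5a2, its usual partner, was at -1.94, -3.64 and -4.49 in dexamethasone-treated HESKOL livers, -2.78, -1.67 and -3.31 in untreated HESKOL livers, -1.94, -2.78 and -2.80 in dexamethasone-treated wild-type livers and -1.35, -2.40 and -4.01 in untreated wild-type livers. Treated and untreated livers overlapped for both, with log2 changes of -0.28 (SE 0.43) and -0.77 (SE 0.74) in HESKOL and -0.082 (SE 0.43) and 0.079 (SE 0.74) in wild-type liver. Col5a3 was the 1 tested type V chain that passed. The remaining fibrillar chains, Col2a1, Col11a1 and Col11a2 of cartilage fibrils, had changes between -0.14 and 0.57 in HESKOL and 0.16 and 0.26 in wild-type liver, none past the threshold. Over all 10 fibrillar genes the median change was -0.25 in HESKOL (3 above 0) and 0.12 in wild-type liver (7 above 0), with 0 higher and 1 lower called in HESKOL and 0 in wild-type liver.

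Among basement membrane collagens, Col4a1 rose with dexamethasone on average. Col4a1 and Col4a2 encode the 2 chains of the ubiquitous type IV network, and the genes stand head to head, with starts 21 bases apart at 11312805 and 11312826 of chromosome 8. The window from 250 bases before to 50 after the start of Col4a1 (RefSeq, GRCm38.p6, chr8:11312777-11313076, minus strand) is shown because both genes read from it in opposite directions. Capitals mark the 78 bases shared with the corresponding window of Col4a2, chr8:11312777-11312854. The probe that stands for Col4a1 is shown after it. It spans chr8:11167857-11169691 of mm7 (minus strand), 1835 bases, so it also crosses an intron and reads spliced RNA.
Col4a1 window: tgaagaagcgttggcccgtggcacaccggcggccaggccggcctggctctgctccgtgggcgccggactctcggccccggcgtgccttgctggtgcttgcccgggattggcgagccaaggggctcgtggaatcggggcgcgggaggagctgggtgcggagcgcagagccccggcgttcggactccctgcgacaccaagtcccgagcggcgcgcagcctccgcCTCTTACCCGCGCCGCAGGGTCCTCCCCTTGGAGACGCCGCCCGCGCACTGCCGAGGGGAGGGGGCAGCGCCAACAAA
Col4a1 probe: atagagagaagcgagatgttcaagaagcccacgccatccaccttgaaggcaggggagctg

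Col4a1 was at 1.86, 1.24 and 0.89 in dexamethasone-treated HESKOL livers, 0.10, 0.61 and -0.40 in untreated HESKOL livers, 1.05, 0.64 and 2.25 in dexamethasone-treated wild-type livers and 0.77, 0.49 and -0.50 in untreated wild-type livers. Treated HESKOL livers were above all untreated HESKOL livers, whereas in wild-type liver treated replicate 2 lay below the highest untreated liver. The log2 change was 1.14 (SE 0.33, adjusted p = 0.0474) on average, a 2.21-fold increase, beside 1.23 (SE 0.47, adjusted p = 0.133) for HESKOL alone and 1.06 (SE 0.47, adjusted p = 0.412) for wild-type alone.

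Col4a2 was at 1.30, 0.69 and 0.74 in dexamethasone-treated HESKOL livers, 0.52, 0.88 and 0.011 in untreated HESKOL livers, 1.47, 0.82 and 1.18 in dexamethasone-treated wild-type livers and 1.28, 0.81 and 0.10 in untreated wild-type livers. The treated and untreated groups overlapped in both genotypes, and the average log2 change was 0.43 (SE 0.24, adjusted p = 0.269), of the same sign as that of Col4a1 and not past the threshold. Whether the 2 genes differed in their response was not tested. A second Col4a1 probe changed by 1.36 on average (adjusted p = 0.0270 in the fit of single probes). With slide as a block the Col4a1 change was -0.17 in HESKOL liver (adjusted p = 0.971), where the sign turned, 0.59 in wild-type liver (adjusted p = 0.9998) and 0.21 on average (adjusted p = 0.992).

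The other type IV chains are those of kidney and other specialised basement membranes. Col4a3 was above background on 3 of 3 treated and 3 of 3 untreated HESKOL arrays, with a log2 change of 0.39, and on 2 of 3 treated and 1 of 3 untreated wild-type arrays. Col4a5 was above background on 2 of 3 treated and 3 of 3 untreated HESKOL arrays and on 1 of 3 treated and 2 of 3 untreated wild-type arrays, so no size of its change is given. Col4a4 had a log2 change of 0.0035 in HESKOL and 0.13 in wild-type liver, and Col4a6 of -0.09 and 0.13, none past the threshold. Over the 6 basement membrane genes, with these partly unmeasured ones included, the median log2 change was 0.20 in HESKOL (4 above 0) and 0.28 in wild-type liver (5 above 0).

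In the group of beaded-filament and anchoring collagens, Col7a1, the collagen of the anchoring fibrils that fasten skin epithelium, rose on average. It was at -3.79, -3.85 and -3.30 in dexamethasone-treated HESKOL livers, -3.99, -3.92 and -3.83 in untreated HESKOL livers, -2.87, -2.79 and -2.49 in dexamethasone-treated wild-type livers and -3.84, -3.61 and -3.67 in untreated wild-type livers. Treated wild-type livers lay above all other livers, while treated and untreated HESKOL livers overlapped. The log2 change was 0.63 (SE 0.15, adjusted p = 0.0221) on average, 0.26 (SE 0.21, adjusted p = 0.469) for HESKOL alone and 0.99 (SE 0.21, adjusted p = 0.114) for wild-type alone, and the test of the difference gave -0.73 (SE 0.29, adjusted p = 0.680). Without treated wild-type replicate 1 the wild-type change was 1.07 and passed (adjusted p = 0.0226). With slide as a block the change was -0.11 in HESKOL liver (adjusted p = 0.962), where the sign turned, 0.77 in wild-type liver (adjusted p = 0.9998) and 0.33 on average (adjusted p = 0.987).

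Type VI collagen, whose 3 chains assemble into beaded filaments near cells, did not change past the threshold. Col6a1 was at -1.24, -2.03 and -2.27 in dexamethasone-treated HESKOL livers, -2.42, -1.49 and -2.67 in untreated HESKOL livers, -1.61, -1.70 and -2.03 in dexamethasone-treated wild-type livers and -1.40, -1.84 and -3.00 in untreated wild-type livers. Col6a2 was at -2.56, -2.80 and -3.79 in dexamethasone-treated HESKOL livers, -3.54, -2.89 and -3.40 in untreated HESKOL livers, -2.83, -3.11 and -3.23 in dexamethasone-treated wild-type livers and -2.81, -3.40 and -3.69 in untreated wild-type livers. Col6a3 was at -0.95, -0.96 and -1.65 in dexamethasone-treated HESKOL livers, -1.59, -0.91 and -1.45 in untreated HESKOL livers, -0.81, -0.67 and -0.95 in dexamethasone-treated wild-type livers and -0.20, -1.09 and -1.57 in untreated wild-type livers. In all 3 genes treated and untreated livers of each genotype overlapped. Their log2 changes were 0.34, 0.23 and 0.13 in HESKOL and 0.30, 0.25 and 0.14 in wild-type liver, with SEs of 0.44, 0.34 and 0.35. The changes were positive in both genotypes, and none passed.

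Among fibril-associated collagens, Col20a1, which resembles the collagens found on fibril surfaces, rose on average. Its promoter (RefSeq, GRCm38.p6, chr2:180986285-180986584, plus strand, 250 bases before to 50 after the start) is shown because it was 1 of 2 collagen promoters, with that of Col9a1, that held the hexamer of a glucocorticoid response element, AGAACA, on either strand. On the strand shown the second match reads as the reverse complement, TGTTCT. Capitals mark the matches, which start at -87 and +41 from the start.
Col20a1 promoter: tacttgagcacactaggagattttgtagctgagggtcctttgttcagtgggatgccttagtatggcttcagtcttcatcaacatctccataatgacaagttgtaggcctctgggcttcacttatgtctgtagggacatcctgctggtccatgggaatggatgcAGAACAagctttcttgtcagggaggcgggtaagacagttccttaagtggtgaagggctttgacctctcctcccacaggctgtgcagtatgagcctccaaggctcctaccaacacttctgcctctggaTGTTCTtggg

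The RefSeq table held 35 promoters of 32 of the 40 collagen genes. AGAACA occurred on either strand in 5.71% of the 35, against 19.0% of all 32851 promoters of that length. The full palindrome, the hexamer and its reverse complement with 3 bases between them, occurred in 3 of all promoters and in 0 of the collagen promoters. The N-box CACNAG, the core that Hes proteins are known to bind, occurred on either strand in 14 of 35 collagen promoters, 40%, against 42.5% of all, and among those that changed on average it was in the promoters of Col13a1, Col20a1, Col4a1 and Col5a3. TATAAA occurred on either strand in 5 of 35, 14.3%, against 13.6% of all. These matches describe the letters of the windows and nothing about binding.

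Col20a1 was at -3.52, -1.71 and -3.13 in dexamethasone-treated HESKOL livers, -3.66, -4.30 and -4.18 in untreated HESKOL livers, -3.02, -3.46 and -3.27 in dexamethasone-treated wild-type livers and -4.52, -3.98 and -3.88 in untreated wild-type livers. Treated livers lay above untreated livers without overlap in both genotypes, with treated HESKOL replicate 2 the highest. The log2 change averaged 1.07 (SE 0.29, adjusted p = 0.0370), a 2.10-fold increase, and was 1.26 (SE 0.41, adjusted p = 0.0832) in HESKOL and 0.88 (SE 0.41, adjusted p = 0.435) in wild-type liver. With slide as a block the average was 1.48 (adjusted p = 0.981), and with normexp background correction it was 0.68 (adjusted p = 0.0398). Without treated HESKOL replicate 2 it was 0.80 (adjusted p = 0.0434), with 0.72 in HESKOL liver.

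Col14a1, a fibril-associated collagen of soft connective tissue, was at 2.84, 2.59 and 1.36 in dexamethasone-treated HESKOL livers, 2.10, 2.90 and 2.44 in untreated HESKOL livers, 2.42, 2.19 and 2.33 in dexamethasone-treated wild-type livers and 2.32, 2.41 and 1.79 in untreated wild-type livers. The groups overlapped, and the log2 change was -0.21 (SE 0.37) in HESKOL and 0.14 (SE 0.37) in wild-type liver. Col12a1, a close relative, had a log2 change of 0.45 and -0.0044, Col16a1 of 0.23 and 0.23, Col22a1 of -0.03 and 0.19, and Col9a2 of -0.13 and 0.24, none past the threshold. For Col22a1 different probes of the gene gave changes of opposite sign.

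Among transmembrane collagens, Col13a1, a membrane-anchored collagen of cell contacts including the neuromuscular junction, rose. The second of its probes is shown because it holds both the helix and what follows it. It spans chr10:61385926-61386295 (minus strand, mm7), crosses an intron and runs from the helix, marked by 3 glycine codons (GGN) that stand 9 bases apart and are in capitals, into sequence without that repeat. Of the 78 collagen probes 11 cross an intron, and 4 of these hold a run of at least 3 such codons.
Col13a1 probe 2: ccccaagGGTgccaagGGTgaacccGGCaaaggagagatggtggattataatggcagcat

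Col13a1 was at 2.17, 1.62 and 1.68 in dexamethasone-treated HESKOL livers, 0.61, 0.45 and 0.11 in untreated HESKOL livers, 0.70, 1.56 and 1.85 in dexamethasone-treated wild-type livers and -0.058, 0.95 and 0.36 in untreated wild-type livers. All treated HESKOL livers lay above all untreated HESKOL livers, and in wild-type liver treated replicate 1 lay below the highest untreated liver. The log2 change was 1.43 (SE 0.34, adjusted p = 0.0298) in HESKOL liver, a 2.70-fold increase, 0.95 (SE 0.34, adjusted p = 0.315) in wild-type liver and 1.19 (SE 0.24, adjusted p = 0.0132) on average. Without treated wild-type replicate 1 the wild-type change was 1.29 and passed (adjusted p = 0.0408). With slide as a block the values were 0.82 in HESKOL (adjusted p = 0.873) and 0.93 on average (adjusted p = 0.987). The probe shown had a change of 1.37 in HESKOL liver (adjusted p = 0.276 in the fit of single probes).

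The other transmembrane collagens were lower or mixed without passing. Col25a1, known from amyloid plaques in brain, had a log2 change of -0.95 (SE 0.54) in HESKOL and -0.61 (SE 0.54) in wild-type liver. It passed in wild-type liver without treated replicate 1, at -1.37 (adjusted p = 0.0461). With all arrays, the tested probes of Col25a1 gave changes of opposite sign in wild-type liver and of the same sign in HESKOL liver. The wild-type call thus rests on the probe that stands for the gene. Col17a1, a hemidesmosome collagen, was above background on 2 of 3 treated and 3 of 3 untreated HESKOL arrays and on 3 of 3 treated and 2 of 3 untreated wild-type arrays, and did not pass. Col23a1 had a log2 change of -0.12 and -0.40.

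The short-chain collagens Col8a1 and Col8a2, which form hexagonal networks under endothelia such as that of the cornea, had changes of opposite sign. Col8a1 was at -2.25, -2.46 and -2.60 in dexamethasone-treated HESKOL livers, -1.47, -0.47 and -0.92 in untreated HESKOL livers, -1.24, -1.36 and -2.89 in dexamethasone-treated wild-type livers and -1.10, -1.82 and -1.31 in untreated wild-type livers. Treated HESKOL livers lay below all untreated HESKOL livers, and the log2 change of -1.48 (SE 0.42, adjusted p = 0.0543) missed the threshold, while its second probe changed by -2.57 (adjusted p = 0.0129 in the fit of single probes). In wild-type liver the change was -0.42 (SE 0.42, adjusted p = 0.745). Without treated wild-type replicate 1 the wild-type change was -0.72 (adjusted p = 0.389), and the HESKOL change passed (adjusted p = 0.0324). Col8a2 had a change of 1.22 (SE 0.42, adjusted p = 0.101) in HESKOL and 0.30 (SE 0.42, adjusted p = 0.841) in wild-type liver.

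The multiplexins Col15a1 and Col18a1 are basement membrane collagens that carry heparan or chondroitin sulfate chains. Col18a1, the source of endostatin, was at 7.72, 7.81 and 7.61 in dexamethasone-treated HESKOL livers, 7.65, 7.43 and 7.51 in untreated HESKOL livers, 7.72, 7.48 and 7.34 in dexamethasone-treated wild-type livers and 7.21, 7.36 and 7.41 in untreated wild-type livers. Treated and untreated livers differed by little, and its changes of 0.18 in HESKOL and 0.19 in wild-type liver (SE 0.18 each) did not pass. Col15a1 was at -2.49, -2.33 and -4.07 in dexamethasone-treated HESKOL livers, -1.13, -0.75 and -1.62 in untreated HESKOL livers, -1.33, -2.85 and -3.61 in dexamethasone-treated wild-type livers and -1.68, -1.98 and -1.97 in untreated wild-type livers. Treated HESKOL livers lay below all untreated HESKOL livers, and treated wild-type livers overlapped with untreated ones through replicate 1. Its log2 change was -1.80 (SE 0.57, adjusted p = 0.0775) in HESKOL and -0.72 (SE 0.57, adjusted p = 0.666) in wild-type liver. Without treated wild-type replicate 1 the wild-type change was -1.35 (adjusted p = 0.138), and the gene passed in HESKOL liver (adjusted p = 0.0234).

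**Figure D3:**
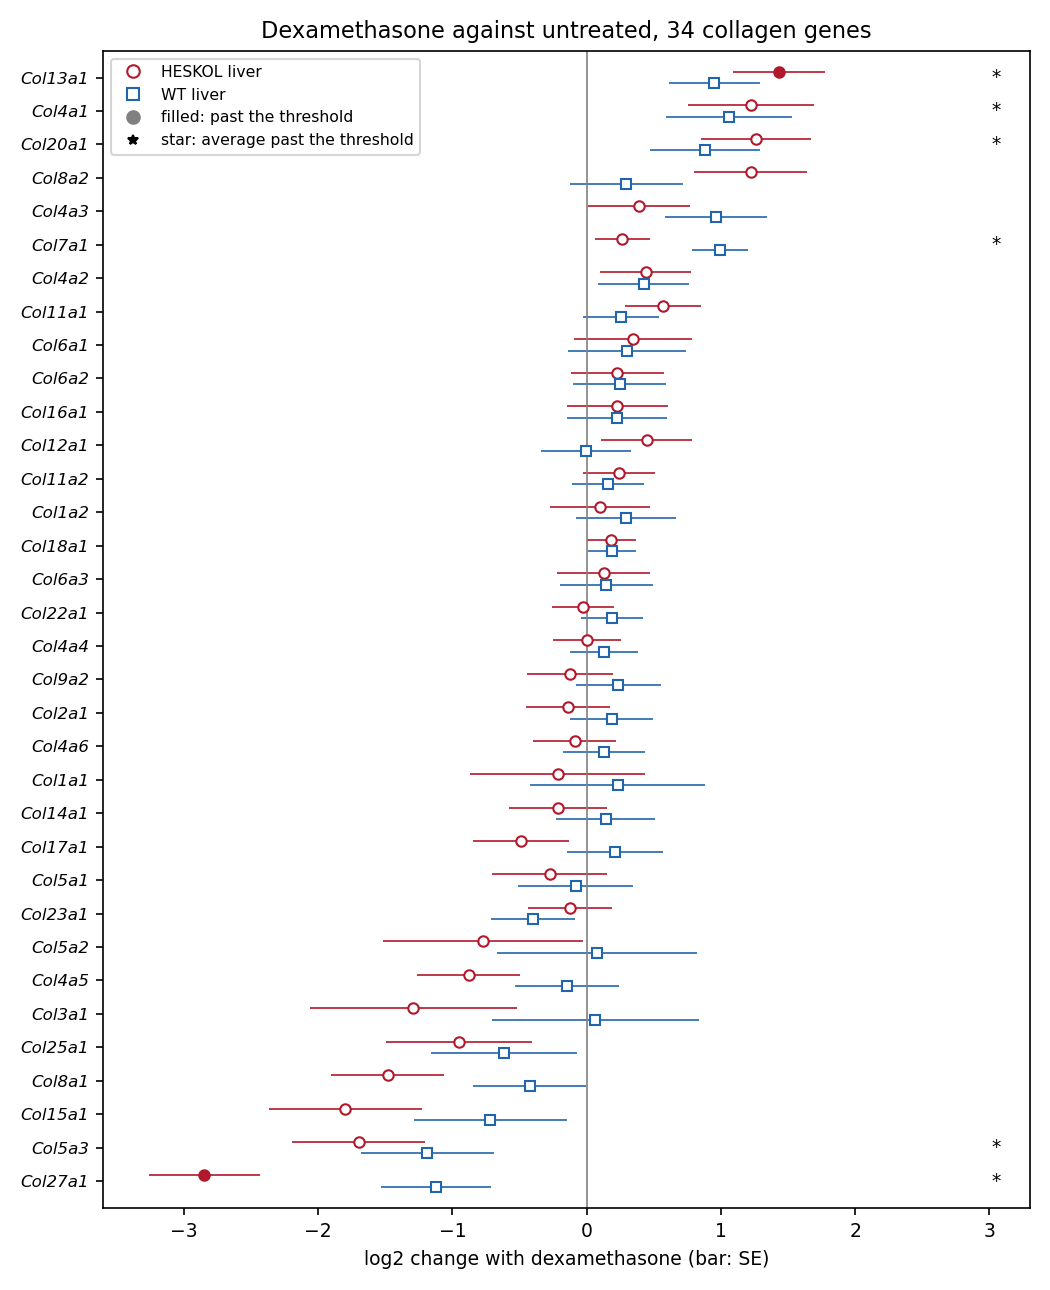
Log2 change with dexamethasone (x axis, log2 units, with SE bars) of the 34 tested collagen genes (y axis, ordered by the average of both genotypes), in HESKOL liver (red circles) and wild-type liver (blue squares). Filled symbols passed the test in that genotype and a star marks the 6 genes that passed on average; Col27a1 lies lowest, at -2.85 in HESKOL liver.

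Leaving out treated wild-type replicate 1 raised the number of collagen genes that passed. In HESKOL liver it was then 5 of 34, 14.7%, against 14.9% of all features, and in wild-type liver 4 of 34, 11.8%, against 5.98% of all features. On average 9 of 34 passed, 26.5%, against 23% of all features, the 6 named above with Col15a1, Col25a1 and Col8a1, all 3 lower. Groups of treated and untreated livers did not overlap for 10 collagen genes in HESKOL liver, 29.4%, against 34.3% of all features, and for 3 in wild-type liver, 8.82%, against 12.1% of all features. The 10 were Col11a1, Col13a1, Col20a1 and Col4a1, higher, as were 15.6% of all features, and Col15a1, Col25a1, Col27a1, Col4a5, Col5a3 and Col8a1, lower, as were 18.7%. Col4a5 cleared the background filter only through the untreated HESKOL livers, where it was high, so its place among the lower genes is no support for a change. The 3 were Col20a1 and Col7a1, higher (6.12% of all features), and Col27a1, lower (5.97%), with replicates 1 of the groups apart by less than the second decimal.

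Without dexamethasone, 0 of the 34 collagen genes differed between HESKOL and wild-type livers, and the share was 0% of all features as well (limma, with 2 collagen genes and 297 of all features, 1.59%, at an unadjusted p under 0.05). The 2 were Col4a3 and Col4a5, both partly below background: in untreated livers Col4a3 was measured on 3 of 3 HESKOL and 1 of 3 wild-type arrays and Col4a5 on 3 of 3 and 2 of 3, so their differences are not given. The median log2 difference was 0.035 for the collagen genes and 0.044 for all features. The genotypes did not overlap for 4 collagen genes, Col15a1, Col18a1 and Col4a5 higher and Col5a3 lower in HESKOL livers, or 11.8%, against 6.36% of all features (4.16% higher and 2.2% lower). Col4a5 was tested only because the untreated HESKOL arrays were all above background for it. For the main chain of type I collagen, Col1a1, the difference was -0.22 (SE 0.65).

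After dexamethasone 1 collagen gene differed between the genotypes, 2.94% of the 34, against 1.14% of all features. Col27a1 was lower in HESKOL livers, with a log2 difference of -2.21 (SE 0.41, adjusted p = 0.0357), at 21.6% of the wild-type signal, where 0.444% of all features were lower, and the values of the treated livers given above did not overlap. Within slide 3, which held the 3 treated HESKOL livers and treated wild-type replicate 3, the difference was -1.61, and without treated wild-type replicate 1 it was -1.85 (adjusted p = 0.0465). The call was lost with slide as a block, at -1.61 (adjusted p = 0.305). In untreated livers the Col27a1 difference was -0.49 (SE 0.41, adjusted p = 0.9999), or 0.16 within slide 1. Col7a1 was next, at -0.93 (SE 0.21, adjusted p = 0.0596), and its treated livers did not overlap either (-1.16 within slide 3). It passed without treated wild-type replicate 1 (-1.01, adjusted p = 0.0439), where 2 of 34 collagen genes and 2.44% of all features passed.

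The treated genotypes did not overlap for 4 collagen genes, Col27a1, Col5a3, Col6a3 and Col7a1, each lower in HESKOL livers (Col6a3 by less than the second decimal), or 11.8%, against 18.2% of all features (7.68% lower). The Col5a3 difference was -1.26 (SE 0.50, adjusted p = 0.250), -0.49 within slide 3 and -0.49 (adjusted p = 0.197) without treated wild-type replicate 1. Averaged over both states 0 of 34 collagen genes differed between the genotypes, against 0.241% of all features (4 collagen genes and 10.1% of all features at an unadjusted p under 0.05, limma), with Col27a1 at -1.35 (SE 0.29, adjusted p = 0.126). For the difference between the dexamethasone changes 0 of 34 passed, against 0.016% of all features (2 collagen genes, Col27a1 and Col7a1, and 6.65% of all features at an unadjusted p under 0.05). The median difference after dexamethasone was -0.099 for collagen genes and 0.038 for all features, with the collagen median at 0.01 without treated wild-type replicate 1.

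Among the stromal collagens, 8 fibrillar and type VI chains varied together between mice of the same group. In treated HESKOL, treated wild-type and untreated wild-type livers, replicate 3 had the lowest value of its group for all 8 of Col1a1, Col1a2, Col3a1, Col5a1, Col5a2, Col6a1, Col6a2 and Col6a3. Over all tested features replicate 3 was lowest for 29.5%, 45.0% and 26.1% in these groups. In untreated HESKOL livers the lowest was replicate 1 for 5 and replicate 3 for 3 of the 8. Col14a1 was lowest in replicate 3 of treated HESKOL and untreated wild-type livers, but in replicate 2 of treated wild-type livers. The remaining tested fibrillar chains did not all follow. In treated HESKOL livers Col5a3 was lowest in replicate 3, Col2a1 and Col11a1 in replicate 1, and Col11a2 and Col27a1 in replicate 2. Relative to the mean of the other 2 livers of its group, treated HESKOL replicate 3 stood at a median of -1.18 over the 8 genes (-2.93 to -0.64), treated wild-type replicate 3 at -0.45 (-0.94 to -0.21) and untreated wild-type replicate 3 at -1.16 (-2.13 to -0.40), while the medians over all features were 0.05, -0.15 and 0.19. Replicate numbers have no order across groups, and nothing in the labels ties the mice numbered 3 together.

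Serpinh1, the collagen chaperone HSP47, was low in the same HESKOL liver, at 1.08, 0.82 and -0.22 in treated and 1.03, 2.0 and 1.16 in untreated HESKOL livers. It was at 1.47, 2.2 and 1.96 in treated and 1.80, 1.30 and 0.95 in untreated wild-type livers. Its log2 difference between treated genotypes, -1.32 (SE 0.39, adjusted p = 0.136), did not pass. The summed level of 5 mesothelial markers, on the log2 scale, was 1.11, 0.13 and -0.90 in treated HESKOL livers, -0.52, -0.078 and 0.47 in untreated HESKOL livers, 0.98, -0.13 and -1.0 in treated wild-type livers and 0.94, -0.45 and -1.62 in untreated wild-type livers. It was lowest in replicate 3 of the same 3 groups. The sums of the stellate and fibroblast markers followed this only in part. The stellate sum was lowest in replicate 3 of the treated HESKOL livers, at 6.74, and of the treated wild-type livers, at 6.42. Among the untreated wild-type livers it was highest in replicate 3, at 6.63. The sum of portal fibroblast and myofibroblast markers was lowest in replicate 3 of the treated wild-type livers, at 4.27. In the treated HESKOL livers it was lowest in replicate 1, and in the untreated wild-type livers in replicate 2. The part of such cells in the collagen values was not tested.

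**Figure D4:**
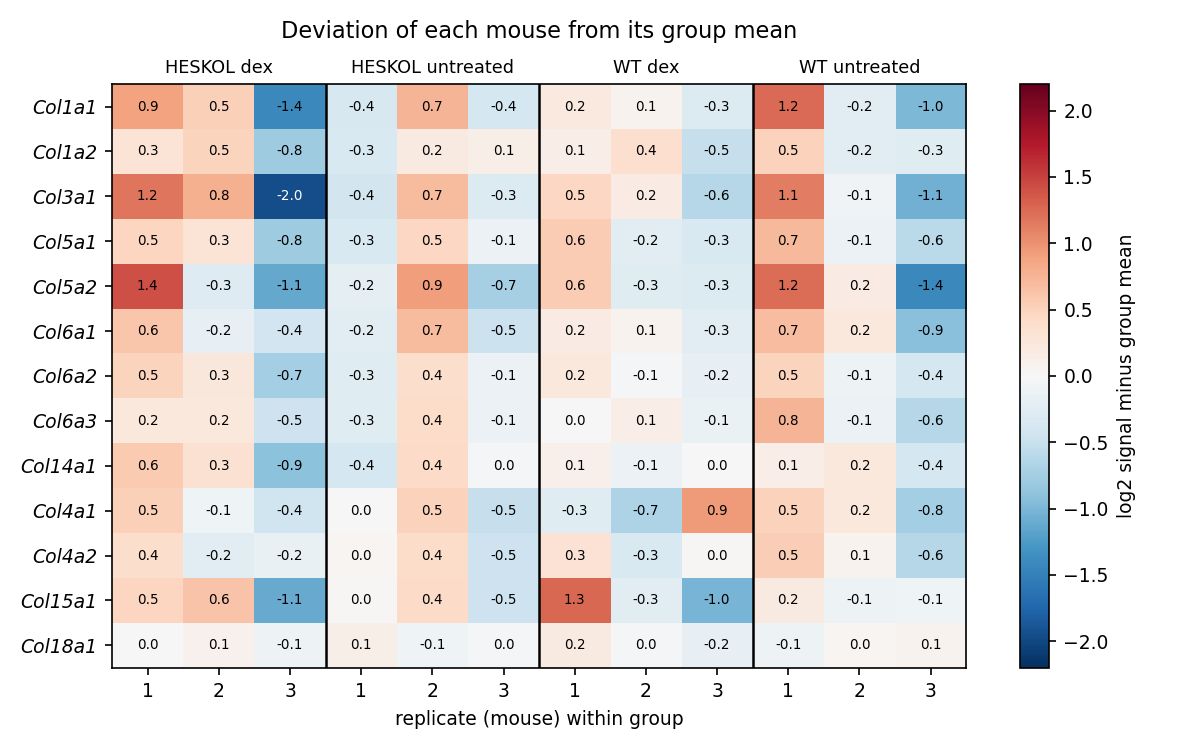
Deviation of each mouse (columns, by group) from the mean of its group (colour, log2 units) for 13 collagen genes (lines of the map), including 5 fibrillar and 3 type VI chains. Replicate 3 of the treated HESKOL, treated wild-type and untreated wild-type livers is below its group mean for these 8 genes.

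Marker genes of the cell types known to make collagen were read beside these results. The summed log2 level of 14 stellate cell markers ran over 6.74 to 7.14 in treated and 6.24 to 7.02 in untreated HESKOL livers, and 6.42 to 6.58 in treated and 6.29 to 6.63 in untreated wild-type livers. Of the 14, Hand2 rose (1.40, adjusted p = 0.0413) and Ngfr fell (-2.02, adjusted p = 0.0380) in HESKOL liver, beside 7.84% of all features that passed. In wild-type liver 0 passed, beside 0.198%. The median changes were 0.09 in HESKOL and 0.03 in wild-type liver. The 15 markers of portal fibroblasts and myofibroblasts ran over 4.43 to 5.0 in treated and 4.34 to 4.75 in untreated HESKOL livers, and 4.27 to 5.37 in treated and 4.25 to 4.81 in untreated wild-type livers. Of the 15, 0 passed in either genotype, beside the same shares of all features. Entpd2 was lower on average (-0.82, adjusted p = 0.0454), where 11.8% of all features passed. The 14 endothelial markers ran over 6.07 to 6.35 in treated and 5.84 to 6.09 in untreated HESKOL livers, and 5.92 to 6.09 in treated and 5.55 to 6.15 in untreated wild-type livers. Of these Lyve1 rose in HESKOL (2.62, adjusted p = 0.00252) and wild-type liver (2.22, adjusted p = 0.0307), and Kdr fell in HESKOL liver (-1.56, adjusted p = 0.0258). Of all features 7.84% passed in HESKOL and 0.198% in wild-type liver. For the stellate, fibroblast and endothelial lists every marker was tested, and 0 markers passed between the genotypes in either state. Of all features 0% passed between untreated and 1.14% between treated genotypes.

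Kupffer cell and macrophage markers were read in the same way. Their summed log2 level ran over 6.33 to 7.62 in treated and 7.27 to 8.24 in untreated HESKOL livers, and 6.55 to 7.76 in treated and 7.04 to 7.75 in untreated wild-type livers. All 11 had a change below 0 in HESKOL liver (median -0.87), as did 50.1% of all features. Of the 11, Adgre1 passed (-1.60, adjusted p = 0.0403), beside 7.84% of all features. In wild-type liver 8 were below 0 (median -0.21), beside 52.1% of all features, and 0 passed, beside 0.198%. Wild-type liver had all 11 below 0 (median -0.62) once treated replicate 1 was left out, and 0 passed, beside 5.98%. In HESKOL liver 3 then fell, beside 14.9% of all features that passed. The part of these cells in the lower Col27a1, Col5a3, Col8a1 and Col15a1 signals was not tested.

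Genes that fold and process fibrillar collagen were read next. Of 25 tested genes of collagen folding, hydroxylation and processing, 2 rose and 1 fell in HESKOL liver (median log2 change 0.11), beside 7.84% of all features that passed, and 0 passed in wild-type liver (median 0.015), beside 0.198%. Averaged over the genotypes 3 rose and 1 fell, beside 11.8% of all features. In wild-type liver 3 rose without treated wild-type replicate 1, beside 5.98% of all features that passed. Fkbp14, a collagen-folding isomerase, rose (1.34, SE 0.27, adjusted p = 0.0169), as did Furin, a convertase that cleaves some procollagen and protease precursors (0.94, SE 0.23, adjusted p = 0.0344). Pcolce2, an enhancer of procollagen C-proteinase, fell (-1.86, SE 0.42, adjusted p = 0.0243). On average Plod2, the lysyl hydroxylase of collagen telopeptides, rose as well (1.01, SE 0.19, adjusted p = 0.00873). The prolyl hydroxylase subunits did not pass, with P4ha1 at -0.061 in HESKOL and 0.60 in wild-type liver and P4hb at 0.27 and 0.088.

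Of 6 crosslinking genes, Lox, the lysyl oxidase that starts collagen crosslinks, passed on average as higher with dexamethasone (adjusted p = 0.0150). In that comparison 11.8% of all features passed. No size is given for the average, because Lox was above background on 6 of 6 treated arrays and 1 of 6 untreated ones. The filter thus kept Lox only through treated livers, where it was high, so its call is no support for a change. In wild-type liver, where 0 of 3 untreated arrays measured it, Lox was at least 2.43-fold higher without passing (adjusted p = 0.145), under the same limit. Of 14 genes of collagen breakdown, the metalloproteinase inhibitor Timp3 rose (1.27, SE 0.33, adjusted p = 0.0413) and the membrane metalloproteinase Mmp15 fell (-2.08, SE 0.44, adjusted p = 0.0204) in HESKOL liver. Of all features 3.64% rose and 4.2% fell there. Timp1 (-0.96, SE 0.31, adjusted p = 0.0861) and Mmp14 (-0.041, SE 0.35, adjusted p = 0.958) did not pass.

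Of 10 collagen receptors, Itga2, the alpha chain of a collagen-binding integrin, was at least 16.1-fold higher in treated HESKOL livers than in untreated ones (adjusted p = 0.00252), which were all below background for it. It also passed as higher in treated HESKOL than treated wild-type livers (adjusted p = 0.0419, above background on 3 and 2 of 3 arrays). No size is given for this, because not all treated wild-type arrays measured it. Of the groups named here, only treated HESKOL livers were above background throughout. The filter may thus have kept Itga2 through the group where it was high. Lair1, an inhibitory leukocyte receptor for collagen, fell in HESKOL liver (-1.70, SE 0.44, adjusted p = 0.0396). Beside these receptors, 7.84% of all features passed in HESKOL liver and 1.14% between treated genotypes.

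Of 20 genes of TGF-beta signalling, the main known inducer of stromal collagen, 3 rose and 0 fell in HESKOL liver, beside 3.64% of all features that rose and 7.84% that passed, and 0 passed in wild-type liver, beside 0.198%. When treated wild-type replicate 1 was left out, 3 rose and 2 fell in HESKOL liver and 4 rose in wild-type liver, beside 14.9% and 5.98% of all features that passed. Ccn2, a matricellular target of the pathway, rose by 4.01 (SE 0.81, adjusted p = 0.0168), the ligand Tgfb3 by 1.49 (SE 0.29, adjusted p = 0.0141) and the SMAD corepressor Skil by 1.06 (SE 0.27, adjusted p = 0.0371). Ccn2 was at -0.23, 2.74 and 3.93 in treated wild-type livers, with replicate 1 lowest, and at 0.54, 0.78 and 0.99 in untreated wild-type livers. The ligand Tgfb1 did not pass (-1.30, SE 0.45, adjusted p = 0.0990). The median log2 change of the list was -0.16 in HESKOL and 0.14 in wild-type liver. Of 26 other matrix proteins, Lama4, a laminin chain of vessel walls, fell in HESKOL liver (-1.86, SE 0.34, adjusted p = 0.0108), beside 4.2% of all features. In the same liver 0 of the 26 rose, beside 3.64%. Of 15 known glucocorticoid receptor targets, 11 rose in HESKOL liver, beside 3.64% of all features, and 4 in wild-type liver, beside 0.198% that passed in either direction, and 0 of the 15 had a change below 0 in either genotype. Their median log2 changes were 2.03 in HESKOL and 1.85 in wild-type liver. When treated wild-type replicate 1 was left out, 13 rose in HESKOL and 9 in wild-type liver, with a wild-type median of 1.76. These lists show between the genotypes 1 gene past the threshold after dexamethasone, Itga2, beside 1.14% of all features, and 0 without dexamethasone, beside 0%. Itga2 carries the limit of the background filter given above.

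With slide as a block a dexamethasone effect is no longer read from 1 genotype alone, since treated and untreated livers of 1 genotype never share a slide, and 0 collagen genes passed in any comparison, and for the average 0 of all features passed. The blocked average changes of the 6 genes that passed on average kept their sign, whereas single-genotype changes of Col27a1, Col4a1 and Col7a1 turned theirs, as given above.

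**Figure D5:**
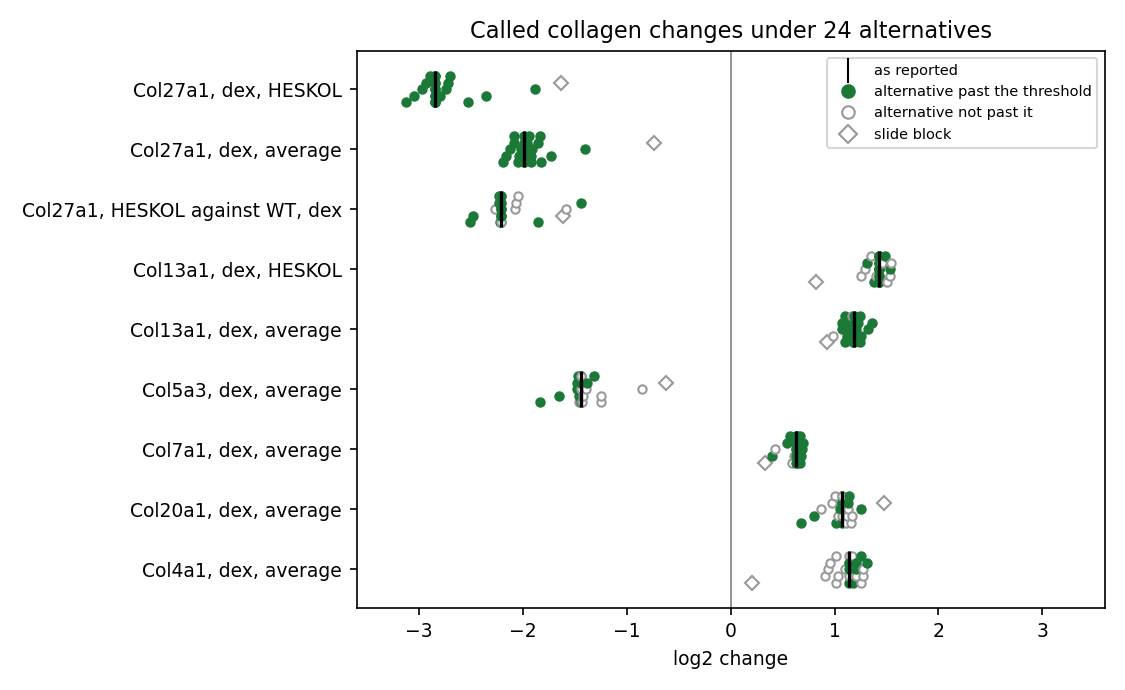
Log2 change (x axis, log2 units) of the 9 combinations of collagen gene and comparison that passed (y axis), as reported (black tick) and under 24 alternative settings. Green filled symbols passed the threshold under that setting, grey open ones did not, and the diamond is the slide block; Col27a1 in HESKOL liver ran from -3.12 to -1.63.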

How the data were processed

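The authors deposited scanner output of 12 one-colour arrays of total liver RNA, written by Agilent Feature Extraction (version 9.5.3.1 in the file headers, 9.5 in the submitters' processing notes), on a design placed on mm7. The deposited intensity is the processed signal of 45018 spots per array, 1639 of them controls, background-subtracted by that software, per the file headers. The series table deposited beside it held the same intensity values (ratio 1), with medians from 53.7 to 112 and no scaling between arrays. Its direction and scale are those of the processed signal.

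Controls and outlier spots were left out, log2 signals were set against the 75th percentile of each array (897 to 1614 units), and spots of a probe were averaged. A probe counted as above background where at least a 0.5 share of its spots was, and was tested where this held on all 3 arrays of a group. The probe with the highest mean stood for its gene. Among 16 collagen genes with several tested probes, the signs of the probes were the same in 14 for dexamethasone in HESKOL and in 10 in wild-type liver. limma 3.58.1 in R 4.3.3 fitted 4 group means and 7 contrasts, with Benjamini-Hochberg adjustment over 18699 features. On simulated data with 200 genes changed by 2 log2 units in HESKOL liver, 75% were recovered, with 9 false calls among 18699.

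Collagen genes past the threshold, fixed stromal collagens and up to 4 of each list's genes past the threshold per contrast were named, with Serpinh1, P4ha1, P4hb, Lox, Timp1, Mmp14, Tgfb1 and Ccn2 whatever their result. The members and lists were chosen with earlier results of these data known. Separate cultures or litters are not described, so p-values measure the spread between these mice. Alternatives were quantile and median scaling, normexp correction, the unscaled table, other filters and probe rules, a replicate block, a fixed and a random slide block, an intensity trend, and each array left out. Promoters came from RefSeq on GRCm38.p6, where 40 of 40 members were matched and 32 had a promoter in the table.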

Additional observations from a re-analysis of the deposited data

How the results depend on the processing

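The number of collagen genes past the threshold moved with the settings. None of the 9 gene and comparison pairs that passed reversed its direction, but with slide as a fixed block the sign turned for 11 of the 34 genes in HESKOL liver, 10 in wild-type liver, 5 on average, 13 between untreated and 15 between treated genotypes, none of them called. Among these were Col27a1 in wild-type liver, at 0.15, and Col4a1, at -0.17, and Col7a1, at -0.11, in HESKOL liver. For dexamethasone in HESKOL liver it was 2, and 1 on the unscaled table, 0 with slide as a fixed block, 6 with slide as a random block and 3 with the replicate block. On average over the genotypes it was 6, and 3 on the unscaled table, 0 with the fixed slide block and 5 with the replicate block. Between treated genotypes it was 1, and 2 with normexp or the random slide block, and 0 on the unscaled table, without a filter, with the mean of the probes or with the fixed slide block. The cause was not tested. The random slide block estimated a correlation of -0.062 between arrays of 1 slide. As this is below 0, the counts under it do not allow for signal shared within a slide. Leaving out each array in turn gave 0 to 4 genes in wild-type liver, 1 to 5 in HESKOL liver, 2 to 9 on average and 0 to 2 between treated genotypes. The highest counts of these came without treated wild-type replicate 1. In HESKOL liver 4 genes passed without treated wild-type replicate 3, and 1 without untreated HESKOL replicate 1, 2 or 3 or treated HESKOL replicate 1 or 2. On average 2 passed without untreated wild-type replicate 1 or untreated HESKOL replicate 1 or 2, and 3 without treated wild-type replicate 3. Between treated genotypes 0 passed without untreated wild-type replicate 2 or 3, treated wild-type replicate 2, untreated HESKOL replicate 2 or treated HESKOL replicate 2 or 3. Of the 24 alternatives, Col27a1 passed in 23 for HESKOL liver, 23 for the average and 14 between treated genotypes, and Col13a1 in 15 and 21, Col7a1 in 19, Col5a3 in 14, Col20a1 in 11 and Col4a1 in 8. Deviations of livers that share a replicate number correlated between -0.40 and 0.62 (6 of 18 pairs over 0.1). Those of livers with different numbers correlated between -0.71 and 0.71 (14 of 36 pairs over 0.1), so a shared number did not mark pairs in general. Untreated wild-type replicate 3 correlated at 0.62 with untreated HESKOL replicate 3 and at 0.42 with treated HESKOL replicate 3. With treated wild-type replicate 3 it was at -0.03.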

Other observations

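Of 8 tested hepatocyte markers, Cps1, a urea cycle enzyme, rose (log2 change 1.37, SE 0.34, limma adjusted p = 0.0337) and Ttr, the thyroid hormone carrier transthyretin, fell (-1.54, SE 0.30, adjusted p = 0.0139) in HESKOL liver, where 7.84% of all features passed, and 0 passed in wild-type liver, where 0.198% did. Of 7 smooth muscle and 5 mesothelial markers 0 passed in either genotype.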
